A study of Mus musculus with 6 samples.

Results

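The genes described here encode plasma membrane and lysosomal carriers of amino acids and of related small molecules such as taurine and creatine. They were picked out by symbol, as the mouse genes of the solute carrier families SLC1, SLC3, SLC6, SLC7, SLC36, SLC38 and SLC43. These families were chosen with earlier results of these data known. The pattern matched 46 of the 22246 genes in the deposited expression table. Slc7a6os, whose name marks it as the opposite strand neighbour of Slc7a6, was left out, which leaves 45 members. Of these, 24 had a mean of at least 1 FPKM (fragments per kilobase, with a scaling for depth) over all libraries and were tested, and 21 did not reach that level.

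The study compared 3 libraries labelled control shRNA with 3 labelled shRNA-Smyd4, all from cells labelled HL-1, a mouse line with origin in an atrial tumour that is used as a cardiomyocyte model, with the strain given as C57BL/6. A short hairpin RNA (shRNA) is processed in the cell into a small interfering RNA that directs degradation of a matching mRNA. Smyd4 encodes a lysine methyltransferase of the SET and MYND domain family. The labels do not state the vector, the hairpin, whether cells were pooled or cloned, or whether separate cultures were used for each library. The spread behind every p-value may therefore be technical only.

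Amino acid carriers work in chains of dependence. Sodium-dependent carriers of the SLC1 and SLC38 families bring glutamine and small neutral amino acids into the cell. Several exchangers of the SLC7 family then trade these for leucine or arginine, while another trades glutamate for cystine. The exchangers are pairs of a light chain, which moves the substrate, and a heavy chain such as Slc3a2 (CD98), which brings it to the cell surface. When amino acids are short, the kinase GCN2 (gene Eif2ak4) phosphorylates the initiation factor eIF2, and the transcription factor ATF4 then binds C/EBP-ATF response elements in the promoters of several of these carriers and of amino acid synthesis enzymes.

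Reads assigned to genes, recovered from the deposited values, numbered 20755856 to 26387606 per library. Smyd4 itself stood at 12.5, 12.8 and 13.5 FPKM in the control libraries and at 12.6, 12.3 and 11.9 FPKM in those labelled shRNA-Smyd4, so the groups overlapped (limma, Benjamini-Hochberg adjusted p = 0.173; exact two-sided permutation p = 0.2, where 0.1 is the smallest p possible). The mRNA of the target therefore goes against the label, and the second group is called the libraries labelled Smyd4 shRNA. The cell label was compared with markers too: 6 of the 8 cardiomyocyte markers with values (Myh6, Actc1, Ryr2, Pln, Tnni3 and Myl7) were below 1 FPKM in every library. The list summed to 88.5 to 91.9 FPKM in the controls and 87.3 to 88.7 FPKM in the labelled libraries, nearly all of it the calcium pump gene Atp2a2 (82.9 and 75.9 FPKM), with Tnnt2 at 7.11 and 11.7 FPKM. Fibroblast markers summed to 239 to 245 FPKM in the controls and 270.0 to 282 FPKM in the labelled libraries, where Col1a1 and Col1a2 were higher and Dcn and Pdgfra lower. Col1a1 went from 37.6 to 69.3 FPKM and Dcn from 26.3 to 1.72 FPKM, while Col3a1 gave no call (114 and 116 FPKM). Smooth muscle markers summed to 301 to 315 FPKM and 197 to 205 FPKM. Acta2 (292 and 196 FPKM) and Tagln (15.8 and 3.82 FPKM) were lower, with Myh11 and Cnn1 under 1 FPKM. The 5 endothelial markers summed to at most 0.612 FPKM in any library, and of 4 macrophage and leukocyte markers only Cd68 exceeded 1 FPKM (1.96 and 1.72 FPKM). Ptprc and Adgre1 were at 0 in every control library, and the macrophage list summed to 1.86 to 2.15 FPKM in the controls and 1.78 to 1.90 FPKM in the labelled libraries. Labelled replicate 3 stood apart in such markers: it alone held reads of Ptprc (7), Adgre1 (2) and Hbb-bs (27, or 1.51 FPKM), and it had the highest value of all 6 libraries for each of the 5 endothelial markers and for Myh11. Without it, 19 of the 24 tested members were called, 14 higher and 5 lower, and the call lost was that of Slc38a6. Over all 11334 genes tested without that library, 4993 were called, 2540 higher and 2453 lower. Erythroid markers summed to 12.9 to 14.9 FPKM and 16.8 to 21.6 FPKM, mostly from Hba-a1. The part of these marker differences in the transporter results was not tested, and in bulk RNA fewer cells of a type cannot be told apart from less RNA per cell.

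The heavy chain Slc3a2 and the 4 tested light chains were higher in the labelled libraries, while the arginine carrier Slc7a2 was nearly lost. Of the 24 tested members, 14 rose, 6 fell and 4 did not pass in the libraries labelled Smyd4 shRNA. Over all 11325 tested genes, 25.1% were called higher and 23.3% lower, 48.3% together (limma on log2(FPKM + 0.5), Benjamini-Hochberg adjusted p under 0.05). The groups did not overlap for 20 of the 24 tested members and for 57.8% of all tested genes. A called rise of at least 0.5 on the log2 scale was found for 9 of the 24 members and for 2.78% of all tested genes. A called fall of at least that size was found for 3 of the 24 and for 5.84% of all tested genes. Of the 18 members with a mean of at least 5 FPKM, 13 rose and 2 fell, where 29.8% and 24.1% of the 7833 genes at that level did. All these shares describe families chosen with earlier results of these data known. The median log2 change was 0.17 for the tested members and 0.02 for all tested genes. One of them, Slc7a2, passed the filter on low values only through the control libraries, so its presence among the tested genes already required a difference. Summed over all 45 members, the level was 503 to 506 FPKM per control library and 659 to 671 FPKM per labelled library, 31.6% higher, while the sum over the whole table was 2.55% higher.

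**Figure D1:**
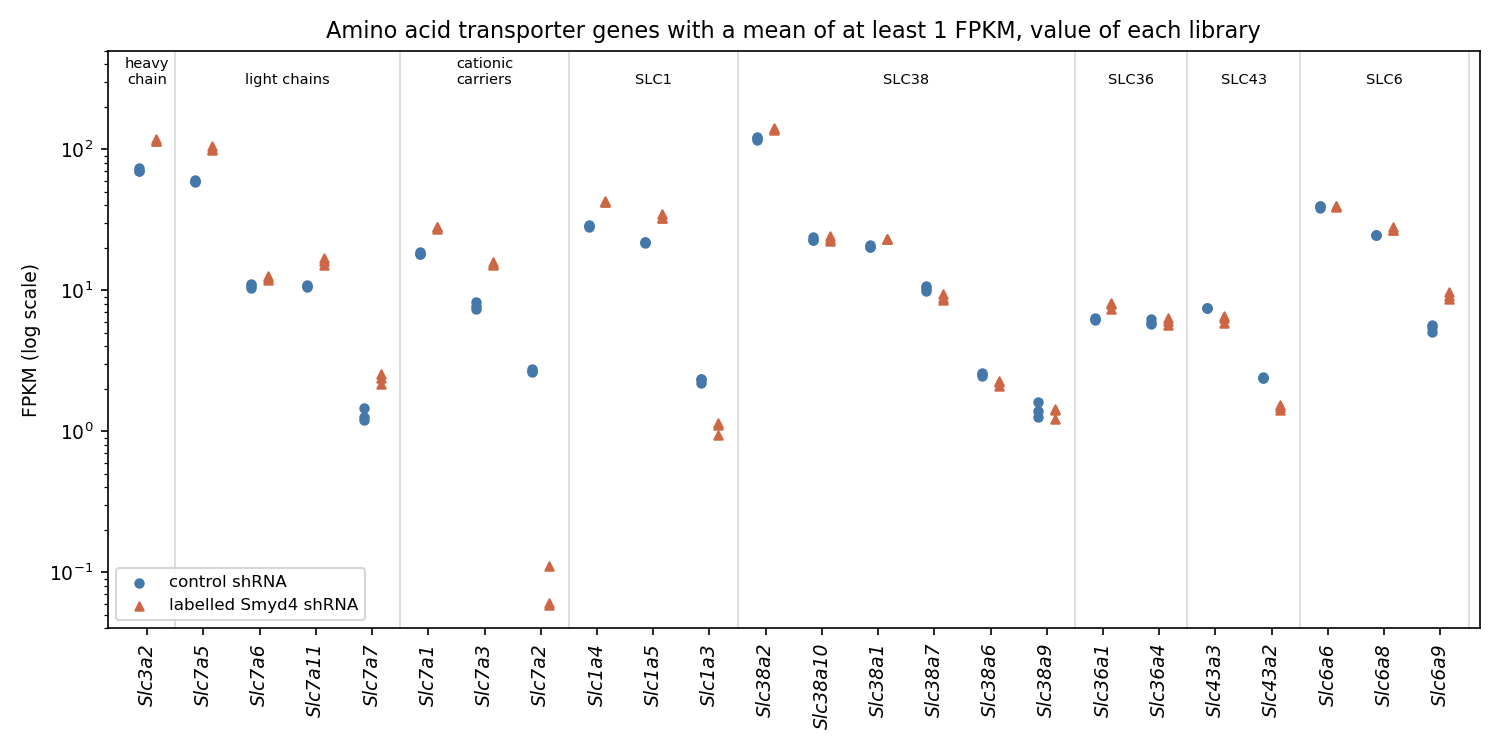
FPKM of each of the 24 tested amino acid transporter genes on a log axis, one point per library, with circles for the 3 control libraries and triangles for the 3 libraries labelled Smyd4 shRNA, grouped by family and role. Slc7a2 drops from 2.63 to 2.77 FPKM to at most 0.111 FPKM, while Slc3a2, Slc7a5, Slc7a1, Slc7a3, Slc1a4 and Slc1a5 lie higher in every labelled library.

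Promoter sequences are given first. Whether ATF4 takes part in any of the changes was not tested. RefSeq promoter windows (GRCm38.p6, 250 bases before to 50 after a transcription start) were matched by symbol for 31 of the 45 members, among them 9 of the 14 that rose. On both strands, the C/EBP-ATF response element core TGATGNAA, which heterodimers of ATF4 bind, was found in windows of Slc7a11, Slc1a4 and Slc7a7, all of which rose. It was found in no window of the 4 members with a window that fell, of the 3 that did not pass or of the 15 that were not tested. Across all genes with a window, 4.51% held it (3.97% of 32851 windows). At that share, finding none in groups this small says little. Among the members that rose, Slc7a7, Slc6a9, Slc7a1 and Slc7a6 had several windows, and so more chances of a match to any motif. The windows below, shown to 30 bases after the start, carry the C/EBP-ATF matches in capitals, on the strand of the gene. They are shown because these are the members that rose and hold the element. The match of Slc1a4 and the second match of Slc7a11 are on the opposite strand and read as the reverse complement TTNCATCA.
Slc7a11, chr3:50443584-50443863, minus strand: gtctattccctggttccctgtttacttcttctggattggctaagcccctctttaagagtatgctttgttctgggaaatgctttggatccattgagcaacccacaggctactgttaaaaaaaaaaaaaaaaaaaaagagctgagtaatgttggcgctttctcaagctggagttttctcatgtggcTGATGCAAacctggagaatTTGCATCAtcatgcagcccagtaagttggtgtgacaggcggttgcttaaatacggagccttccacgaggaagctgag
Slc1a4, chr11:20332684-20332963, minus strand: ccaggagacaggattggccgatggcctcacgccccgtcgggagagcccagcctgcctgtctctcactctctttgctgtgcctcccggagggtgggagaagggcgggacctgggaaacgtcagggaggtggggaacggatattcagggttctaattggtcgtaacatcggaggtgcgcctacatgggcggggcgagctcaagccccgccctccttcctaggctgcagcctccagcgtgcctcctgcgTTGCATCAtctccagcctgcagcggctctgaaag
Slc7a7, chr14:54417915-54418194, minus strand: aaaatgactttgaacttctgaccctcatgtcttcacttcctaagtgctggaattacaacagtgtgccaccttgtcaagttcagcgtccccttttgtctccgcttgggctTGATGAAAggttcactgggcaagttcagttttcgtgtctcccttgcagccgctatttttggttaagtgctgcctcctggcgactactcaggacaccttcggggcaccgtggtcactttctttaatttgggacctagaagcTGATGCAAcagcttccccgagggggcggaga

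In Slc7a11 the 2 matches begin 66 and 47 bases before the start, on opposite strands. The match in Slc1a4 begins 4 bases before the start. The Slc7a7 window lies upstream of the gene bounds in the authors' table (54369442 to 54417780 on chromosome 14), at another RefSeq start. Its matches begin 141 bases and 1 base before the start of the window shown; another of its windows overlaps this one and holds the second of these sites, 243 bases before its own start. The antioxidant response element core TGACNNNGC, bound by the oxidative stress factor NRF2, was found in windows of 5 other members that rose: Slc36a1, Slc38a2, Slc6a9, Slc7a1 and Slc7a6. Across all genes with a window, 14.0% held it (12.4% of windows). It was also found in Slc43a1 and Slc6a13, which were not tested. No window of a member held both motifs. A match describes the letters of the window and is not a measured binding site, and the absence of a match in the Slc3a2 window says only that these letters are not there. That window (chromosome 19, 8713848 to 8714147) lies inside the gene bounds, away from their upstream end at 8723369. The Slc6a9 matches also lie in windows inside its gene bounds, while its window nearest the upstream end holds neither motif.

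**Figure D2:**
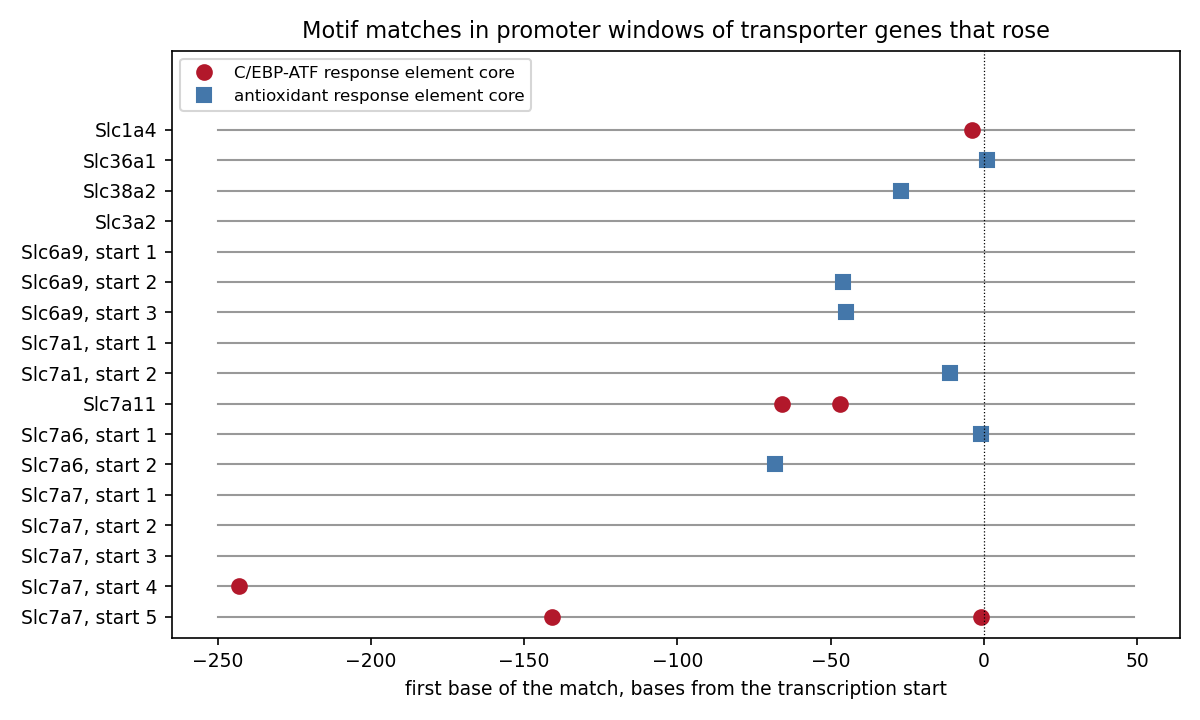
Position of each motif match relative to the transcription start, in bases, in the promoter windows of the 9 members that rose and had a window; grey lines are the windows, circles the C/EBP-ATF response element core and squares the antioxidant response element core. Matches of the first kind lie in windows of Slc1a4, Slc7a11 and Slc7a7, and the window of Slc3a2 holds neither.

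The heavy chain and all tested light chains of the exchanger pairs rose. Slc3a2 (chromosome 19, 8706882 to 8723369, GRCm38, minus strand), the heavy chain, held 70.5, 69.6 and 73.7 FPKM in the control libraries and 118, 115 and 114 FPKM in the labelled ones. Its groups were far apart, 1.62-fold on the means, with a log2 change of 0.70 (standard error 0.03; limma, adjusted p = 9.51e-07). Slc7a5 (LAT1; chromosome 8, 121881150 to 121907694), the main exchanger of leucine and other large neutral amino acids, held 58.8, 59.9 and 60.8 FPKM in the controls and 106, 101 and 98.3 FPKM in the labelled libraries. The rise was 1.70-fold, with a log2 change of 0.76 (standard error 0.03; limma, adjusted p = 9.51e-07), and these 2 subunits rested on at least 5214 reads in every library.

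Slc7a11 (xCT; chromosome 3, 49892526 to 50443614), which imports cystine in exchange for glutamate and so feeds glutathione synthesis, held 10.7, 10.8 and 10.5 FPKM in the controls and 15.1, 17.0 and 16.3 FPKM in the labelled libraries. All labelled libraries lay above all controls. The mean was 1.51-fold higher, with a log2 change of 0.57 (standard error 0.04; limma, adjusted p = 2.64e-05). Slc7a6, which exchanges arginine for glutamine, held 11.0, 10.5 and 10.9 FPKM in the controls and 12.2, 12.7 and 11.7 FPKM in the labelled libraries, a small rise without overlap (log2 change 0.17; limma, adjusted p = 0.0083). Slc7a7, a light chain of the same exchange type known from epithelia and macrophages, held 1.26, 1.46 and 1.20 FPKM in the controls and 2.16, 2.38 and 2.55 FPKM in the labelled libraries. It rose 1.81-fold (log2 change 0.67, standard error 0.09; limma, adjusted p = 0.000483) from 99 to 114 reads per control library. Slc7a7 shares 232 exon bases with Oxa1l, a gene on the opposite strand that also rose (14.98 to 17.59 FPKM; limma, adjusted p = 0.004), and the use of strand in counting is not stated in the labels.

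Levels per length allow the chains to be set side by side, but ratios between genes depend on the lengths used. The authors' lengths were 13922 bases for Slc7a11, 3708 for Slc7a5 and 3529 for Slc3a2. The light chains summed to 81.8, 82.7 and 83.5 FPKM in the controls and 135, 133 and 129 FPKM in the labelled libraries. Their sum divided by the level of Slc3a2 was 1.16, 1.19 and 1.13 in the controls and 1.15, 1.16 and 1.13 in the labelled libraries. These ratios overlapped, so the summed light chain mRNA and the heavy chain mRNA stood in nearly the same proportion in both groups. Within the sum, Slc7a5 relative to Slc3a2 lay between 0.826 and 0.861 in the controls and between 0.862 and 0.895 in the labelled libraries, while Slc7a11 relative to Slc3a2 lay between 0.143 and 0.155 and between 0.128 and 0.148. The other heavy chain, Slc3a1, known from kidney and gut, was at most 0.128 FPKM in any library, and the light chain family member Slc7a15 at most 0.132 FPKM.

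**Figure D3:**
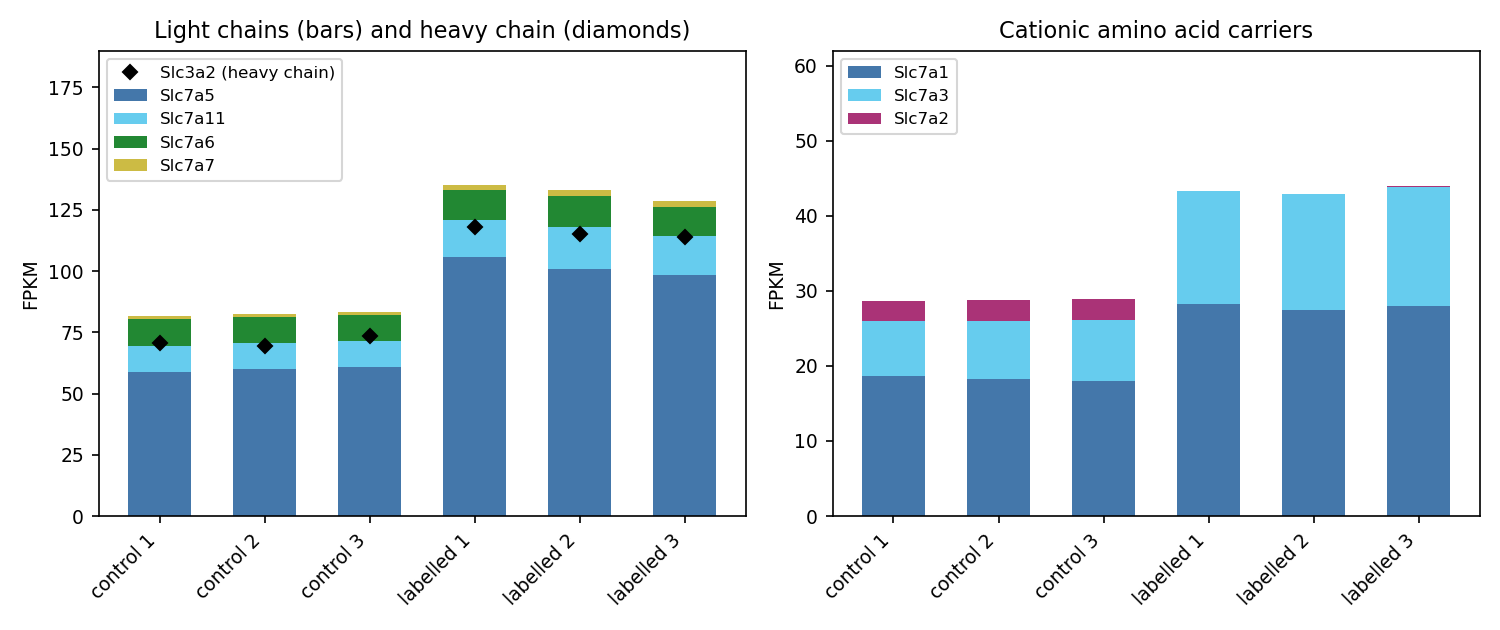
Left, FPKM of the light chain genes Slc7a5, Slc7a11, Slc7a6 and Slc7a7 stacked for each library, with the heavy chain gene Slc3a2 as diamonds; right, FPKM of the cationic amino acid carriers Slc7a1, Slc7a3 and Slc7a2 stacked for each library. The bars and the diamonds rise together on the left, and on the right the Slc7a2 share goes from between 9.18% and 9.62% of the stack to at most 0.252% while the stack grows.

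The carriers of arginine, lysine and ornithine moved in opposite directions. Slc7a1 (CAT1; chromosome 5, 148327410 to 148399904), the widely expressed member, held 18.6, 18.2 and 18.0 FPKM in the controls and 28.2, 27.4 and 28.0 FPKM in the labelled libraries. It rose 1.53-fold (log2 change 0.60, standard error 0.03; limma, adjusted p = 1.42e-06). Slc7a3 (CAT3; chromosome X, 101079210 to 101086020), otherwise known mainly from brain and embryo, held 7.40, 7.76 and 8.19 FPKM in the controls and 15.1, 15.5 and 15.9 FPKM in the labelled libraries. With a 1.99-fold difference (log2 change 0.95, standard error 0.04; limma, adjusted p = 1.24e-06), this was the largest rise among the tested members on the log2 scale and the 68th largest among all tested genes.

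Slc7a2 (CAT2; chromosome 8, 40862396 to 40922308), the member that inflammatory signals induce in macrophages, went the other way. Its values were 2.63, 2.77 and 2.69 FPKM in the controls and 0.0586, 0.0606 and 0.111 FPKM in the labelled libraries. That is a 35.1-fold difference of the means, from 575 to 622 reads per control library to 14 to 21 per labelled library. On the log2(FPKM + 0.5) scale, which understates changes of low genes, it fell by 2.47 (standard error 0.10; limma, adjusted p = 6.65e-07), the 32nd largest fall of all tested genes. The highest labelled value was that of replicate 3, without which the log2 change was -2.51 (limma, adjusted p = 2.54e-06). In edgeR on the recovered reads the log2 change was -5.17 (quasi-likelihood test, adjusted p = 1.04e-23). Of the summed FPKM of the 3 carriers, Slc7a2 supplied between 9.18% and 9.62% in the controls and between 0.135% and 0.252% in the labelled libraries. The share of Slc7a3 went from between 25.8% and 28.4% to between 34.7% and 36.1%, and that of Slc7a1 stayed between 62.3% and 65.1% in all 6 libraries. The sum of the cationic carriers, Slc7a4 included, was 28.8 to 29.0 FPKM in the controls and 42.9 to 44.0 FPKM in the labelled libraries. These shares and sums depend on the authors' lengths, 11530, 9135 and 3784 bases for Slc7a1, Slc7a2 and Slc7a3.

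Among the SLC1 carriers, the neutral amino acid members rose and the glutamate carrier fell. Slc1a4 (ASCT1; chromosome 11, 20302180 to 20332713), which carries alanine, serine and cysteine, held 28.8, 27.9 and 28.4 FPKM in the controls and 42.6, 42.1 and 43.1 FPKM in the labelled libraries. Slc1a5 (ASCT2; chromosome 7, 16781340 to 16798274), a main route of glutamine into dividing cells, held 21.7, 22.2 and 22.1 FPKM in the controls and 34.9, 32.7 and 32.5 FPKM in the labelled libraries. The groups were well apart for both genes, which rose by 50.1% and 51.5%, with log2 changes of 0.58 and 0.59 (standard errors 0.03 and 0.03; limma, adjusted p = 1.14e-06 and 4.45e-06).

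Slc1a3 (GLAST; chromosome 15, 8634124 to 8710764), the sodium-driven glutamate carrier best known from astrocytes, held 2.19, 2.33 and 2.35 FPKM in the controls and 1.10, 0.941 and 1.14 FPKM in the labelled libraries. It fell by 0.84 on the log2 scale (standard error 0.08; limma, adjusted p = 8.23e-05), a 2.16-fold difference of the means. The other glutamate carriers were close to absent: Slc1a1, Slc1a2, Slc1a6 and Slc1a7 were at most 0.0628 FPKM in any library.

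The SLC38 family holds the most abundant member of all 45. Slc38a2 (SNAT2; chromosome 15, 96687394 to 96699698), a sodium-driven carrier of small neutral amino acids that cells raise when amino acids are short, held 120.4, 121 and 116 FPKM in the controls and 136, 141 and 139 FPKM in the labelled libraries. Its rise of 16.2% was small but clear of the spread between libraries (log2 change 0.22, standard error 0.03; limma, adjusted p = 0.00043). Slc38a1 (SNAT1), its neighbour on chromosome 15 (96571418 to 96642913), held 20.2, 21.002 and 20.4 FPKM in the controls and 23.1, 23.3 and 22.9 FPKM in the labelled libraries, 12.5% higher (log2 change 0.17, standard error 0.03; limma, adjusted p = 0.00156). Slc38a4, further along the same stretch, stayed at or below 0.196 FPKM everywhere.

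None of the other 4 tested SLC38 members rose. Slc38a7 (SNAT7; chromosome 8, 95835920 to 95853539), which releases glutamine and asparagine from lysosomes, held 9.86, 10.7 and 10.3 FPKM in the controls and 8.81, 8.50 and 9.37 FPKM in the labelled libraries, and it fell by 0.20 on the log2 scale (standard error 0.05; limma, adjusted p = 0.00849). Slc38a9, the arginine sensor of the lysosome that activates mTORC1, stood at 1.42 ± 0.179 and 1.36 ± 0.129 FPKM (SD, n = 3), with a 95% confidence interval of the log2 change from -0.27 to 0.19 (limma, adjusted p = 0.758). Slc38a10 stood at 23.0 ± 0.664 and 23.3 ± 0.965 FPKM (SD, n = 3; interval from -0.07 to 0.11; limma, adjusted p = 0.698). Slc38a6 was lower at 2.19 ± 0.0861 against 2.53 ± 0.0501 FPKM (SD, n = 3; limma, adjusted p = 0.040). That call was lost in every fit with a library left out (adjusted p from 0.0572 to 0.111), and its p ranged from 0.00587 to 0.156 over the alternatives.

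In the SLC36 family of proton-coupled carriers, Slc36a1 (PAT1; chromosome 11, 55204350 to 55236330), which exports small amino acids from lysosomes, held 6.38, 6.19 and 6.23 FPKM in the controls and 7.99, 8.17 and 7.32 FPKM in the labelled libraries. It rose 1.25-fold (log2 change 0.30, standard error 0.05; limma, adjusted p = 0.00121). Slc36a4 stood at 5.96 ± 0.272 and 6.03 ± 0.363 FPKM (SD, n = 3; interval of the log2 change from -0.11 to 0.14; limma, adjusted p = 0.859), and its groups overlapped. Slc36a2 and Slc36a3, which lie beside Slc36a1 on chromosome 11, had at most 1 read in any library.

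Both tested SLC43 members fell. Slc43a2 (LAT4; chromosome 11, 75531694 to 75577575), which lets leucine and other branched-chain amino acids leave or enter by facilitated diffusion, held 2.38, 2.40 and 2.41 FPKM in the controls and 1.52, 1.49 and 1.42 FPKM in the labelled libraries. It fell by 0.55 on the log2 scale (standard error 0.06; limma, adjusted p = 0.000225), opposite in direction to Slc7a5, which carries the same substrates as an exchanger. Slc43a3 (chromosome 2, 84936579 to 84958509), a relative that carries purine nucleobases, held 7.52, 7.47 and 7.43 FPKM in the controls and 6.34, 5.88 and 6.59 FPKM in the labelled libraries, and it fell by 0.24 (standard error 0.05; limma, adjusted p = 0.00358). Slc43a1 (LAT3), close to Slc43a3 on the same chromosome, was not tested, with 12 to 18 reads in each control library against 4 to 10 in each labelled one.

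Of the 12 SLC6 members, 3 passed the filter on low values. Slc6a9 (GLYT1; chromosome 4, 117834506 to 117875198), the glycine carrier, held 5.66, 5.48 and 5.06 FPKM in the controls and 9.66, 8.74 and 9.09 FPKM in the labelled libraries, a 1.70-fold rise (log2 change 0.71, standard error 0.05; limma, adjusted p = 2.02e-05). It shares 1429 exon bases with Ccdc24 and 46 with B4galt2, both on the opposite strand, of which Ccdc24 stood at 0.055 and 0.0587 FPKM and B4galt2 fell (9.49 to 8.27 FPKM; limma, adjusted p = 0.0195). Slc6a8 (chromosome X, 73673150 to 73682502), the creatine carrier, held 24.6 FPKM in each control library and 28.2, 27.0 and 26.6 FPKM in the labelled libraries, 10.6% higher without overlap (log2 change 0.14, standard error 0.03; limma, adjusted p = 0.00482). Slc6a6, the taurine carrier, was the fourth most abundant member in the controls. It stood at 39.3 ± 0.966 and 39.6 ± 0.483 FPKM (SD, n = 3), with an interval of the log2 change from -0.05 to 0.08 (limma, adjusted p = 0.758).

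**Figure D4:**
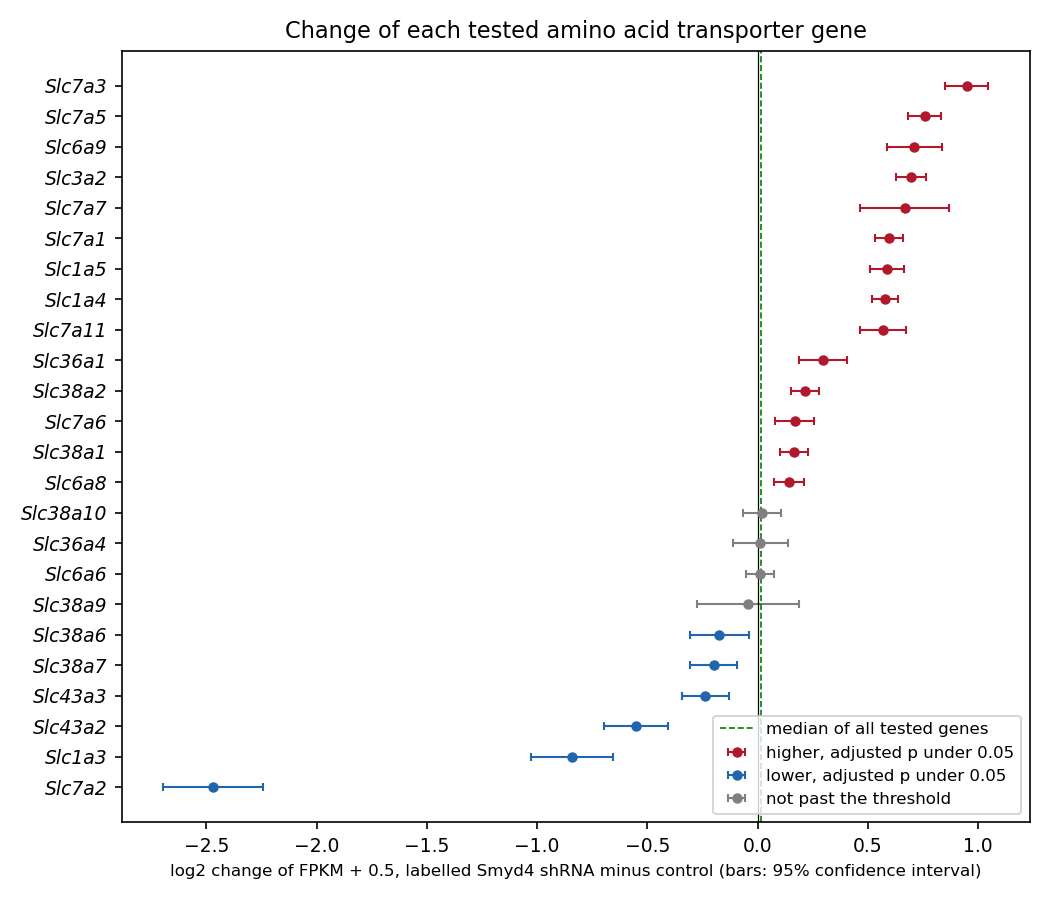
Change of each of the 24 tested amino acid transporter genes on the log2(FPKM + 0.5) scale, labelled Smyd4 shRNA minus control, as the limma estimate with its 95% confidence interval; the dashed line is the median of all tested genes, 0.02. The 9 rises of at least 0.5 form a block at the top from Slc7a11 to Slc7a3, and Slc7a2 stands apart at the bottom at -2.47.

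The 21 members below the filter were under 0.5 FPKM in every library and together summed to at most 1.05 FPKM. Most are carriers of neurons, kidney or gut, such as the dopamine carrier Slc6a3, the serotonin carrier Slc6a4 and the second glycine carrier Slc6a5. The highest single value among them was 0.288 FPKM, of Slc6a17 in a control library. The authors' deposited table lists 3 of the 21, and they are named here after their values were seen. Slc6a17, a vesicular carrier of neurons, was counted at 53 to 75 reads in the controls but 0 to 6 in the labelled libraries (log2 change -4.21 in edgeR on the recovered reads). Slc7a4, a relative of the cationic carriers, had 10 to 14 and 0 to 3 reads (log2 change -3.05 in edgeR), and it shares 554 exon bases with P2rx6 on the opposite strand. Slc6a2, the noradrenaline carrier, had 10 to 24 and 1 to 7 reads (log2 change -2.08 in edgeR). The log2 changes in the authors' deposited table were smaller, at -2.06, -0.65 and -0.53 for the same 3 genes. In edgeR on the recovered reads, 5 of the 21 were tested, and these 3 and Slc43a1 were lower (quasi-likelihood test, adjusted p from 6.12e-11 to 0.0129); the other one, Slc38a4, whose recovered reads are lower bounds, did not pass (adjusted p = 0.435). Slc43a1 did not pass in DESeq2 on the same reads (adjusted p = 0.108), and Slc6a2 did not pass in limma without the filter (adjusted p = 0.124). Of all 13775 genes in the edgeR fit, 49.5% were called, 3204 higher and 3620 lower. DESeq2 on the same reads called 32.6% of its genes, and 22 of the 34 members it tested. The 4 members lower in edgeR entered that fit through their control libraries, which already required a difference.

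The regulators of the amino acid response were compared in the same fit. Against 25.1% of all tested genes called higher and 23.3% lower, 10 of the 20 tested genes of that list rose, 5 fell and 5 gave no call. Their median log2 change was 0.12. Atf5, a transcription factor induced by ATF4, rose from 126 ± 3.45 to 256 ± 6.63 FPKM (SD, n = 3; limma, adjusted p = 1.75e-07), and Asns, which makes asparagine, from 105 ± 0.596 to 177 ± 2.46 FPKM (limma, adjusted p = 1.75e-07). Atf3, an early stress-induced factor, fell from 7.02 to 4.28 FPKM and Ppp1r15a, which recruits a phosphatase to eIF2, from 7.21 to 5.21 FPKM (limma, adjusted p = 1.86e-05 and 7.48e-05). The mRNA of Atf4 itself, named after its value was seen, stood at 208 ± 1.83 and 216 ± 5.02 FPKM (SD, n = 3; limma, adjusted p = 0.11). The GCN2 gene Eif2ak4, named in the same way, fell from 4.99 to 4.41 FPKM (limma, adjusted p = 0.0124).

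Among genes that report amino acids to mTORC1, 34 were tested. Of these, 9 rose and 5 fell, 20 gave no call, and the median log2 change was 0.04. Over all tested genes, 25.1% were called higher and 23.3% lower, so rises were about as frequent in this list as over all genes. Sesn2, a leucine sensor, rose from 18.4 to 23.1 FPKM, and Lamtor1, which anchors the Ragulator complex to the lysosome, from 62.002 to 71.8 FPKM (limma, adjusted p = 0.000296 and 0.00316). The related Sesn3 fell from 4.17 to 2.32 FPKM and Castor2, a relative of the arginine sensor Castor1, from 8.77 to 6.03 FPKM (limma, adjusted p = 6.37e-05 and 0.000166).

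Amino acid carriers of other families included 10 that were tested. Of these, 5 rose, 1 fell and 4 gave no call, at a median log2 change of 0.12, where 25.1% and 23.3% of all tested genes were called higher and lower. Sfxn1, which takes serine into mitochondria, rose from 25.7 to 33.2 FPKM, Slc25a15, the mitochondrial ornithine carrier, from 3.73 to 5.23 FPKM and Slc25a12, the aspartate-glutamate carrier, from 11.5 to 13.2 FPKM (limma, adjusted p from 8.73e-06 to 0.00189). Slc15a4, a lysosomal carrier of histidine and peptides, fell from 5.50 to 4.46 FPKM (limma, adjusted p = 0.00442).

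Of the enzymes that make or use the carried amino acids, 20 were tested. Here 9 rose, 4 fell and 7 gave no call, at a median log2 change of 0.07. Cth, which makes cysteine from cystathionine, rose from 33.6 ± 1.44 to 63.0 ± 1.78 FPKM and Gpt2, an alanine transaminase of mitochondria, from 18.6 ± 0.623 to 29.4 ± 0.663 FPKM (SD, n = 3; limma, adjusted p = 8.34e-07 and 2.56e-06). Glul, glutamine synthetase, fell from 19.0 ± 0.254 to 8.83 ± 0.638 FPKM, and Gatm, the first enzyme of creatine synthesis, from 36.9 ± 1.16 to 24.5 ± 0.596 FPKM (SD, n = 3; limma, adjusted p = 1.32e-06 and 3.97e-06). Glul fell in the libraries in which the glutamine carrier Slc1a5 rose, and Gatm in those in which the creatine carrier Slc6a8 rose. Other genes went the other way. Gamt, another enzyme of creatine synthesis, rose from 17.3 to 22.7 FPKM (limma, adjusted p = 0.00192), and the lysosomal glutamine carrier Slc38a7 fell. These pairings were made after the values were seen, and a link within them was not tested. All 4 lists are read against the 25.1% of tested genes called higher and 23.3% called lower.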

How the data were processed

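FPKM for 22246 Ensembl genes, 1 column per library, were deposited by the authors. The deposited comparison table lists 5616 genes called by the authors, with a normalized signal (a gene's reads divided by 1 size factor per library), log2 fold changes, p-values, gene lengths and coordinates. TopHat2 2.0.9, Bowtie2 2.0.6 and GRCm38 are named, per the submitters' processing notes, with counter, annotation and strandedness not stated there or in the labels. FPKM times length divided by the deposited signal is 1 constant, so the FPKM carry the size factors. All signal values (100%) were whole multiples of 1 step within 1e-04, and reads were recovered from the FPKM with the authors' lengths (5616 genes), GENCODE M21 lengths (13309) or the smallest length that gives whole reads (3321, lower bounds).

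Symbols matched 22134 identifiers; coordinates are the authors' or GENCODE M21 (GRCm38). Values were log2(FPKM + 0.5) transformed, a mean of at least 1 FPKM was required, and limma 3.58.1 in R 4.3.3 compared the groups (empirical Bayes moderation, mean-dependent trend), adjusted by Benjamini-Hochberg over all tested genes at 0.05; the script was tested on simulated data. Alternatives were other pseudocounts, filters and scalings, a replicate block, single libraries left out, and edgeR 4.0.16 and DESeq2 1.42.0 on recovered reads. Intervals are 95%. Members past the threshold with a mean of at least 5 FPKM or a log2 change of at least 0.5 are given by library; each list is illustrated by at most 4 genes ranked on adjusted p, 2 from each direction where it has them, with Smyd4, Myh6, Tnnt2 and Gapdh as level checks (Gapdh was at 595 and 576 FPKM, limma adjusted p = 0.311). The members and lists were chosen with earlier results of these data known. Nppa and other listed genes without a row were not analysed here.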

Additional observations from a re-analysis of the deposited data

How the results depend on the processing

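Over 15 alternatives, 23 of the 24 tested members kept their direction and their side of the threshold wherever they were tested, or stayed without a call; the exception, Slc38a6, lost its call in 10 of them. The 14 higher calls numbered 14 in every alternative except the filter at a mean of 5 FPKM (13, since Slc7a7 was not tested). Lower calls, 6 in the report, numbered 2 with that filter, because 4 of the 6 were not tested. In edgeR on recovered reads, which tested 29 members against 24, they numbered 10. EdgeR called 3620 of its 13775 genes lower. Calls over all genes moved too: higher calls were 2582 of 22246 genes with no filter and 3163 of 11325 after quantile normalization. With single libraries left out, 19 members were called each time, 14 higher and 5 lower. Over all genes, 4536 to 4993 were called, of 11290 to 11338 tested. Of these, 2297 to 2568 were higher and 2239 to 2453 lower. Smyd4 passed in none (adjusted p from 0.117 to 0.444). Same-numbered libraries showed no shared deviation (correlations -0.0324, 0.0182 and 0.00689). With 3 libraries per group, this cannot settle whether the numbers mark pairs. A replicate block called 5141 of 11325 genes, 2667 higher and 2474 lower, and 19 members, 14 higher and 5 lower. Members near 0 FPKM rest on a few reads, which limits what can be said of them.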
